A study of Mus musculus with 12 samples.

Results

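The 10 immediate early genes Fos, Fosb, Jun, Junb, Egr1, Atf3, Ier2, Dusp1, Nr4a1 and Zfp36 were followed in macrophages (Mϕ) sorted from the inflamed peritoneum of mice 6 days after an injection of zymosan. They were chosen by name and found by their Ensembl identifiers, and they are 10 of the 47643 genes listed in each of the 2 deposited tables. All mice were female C57/BL6 mice aged 8 to 12 weeks that received 5 mg/kg zymosan A, a yeast cell wall preparation, intraperitoneally. From day 1 on they were injected daily with compound III (CIII, 25 mg/kg), an inhibitor of the prostaglandin E2 synthase mPGES-1, or with its vehicle (VEH) of Tween-80, carboxymethyl-cellulose and saline. F4/80lo Mϕ were sorted as CD45+ CD11b+ cells low in F4/80 and MerTK and high in MHCII, and F4/80hi Mϕ as CD45+ CD11b+ cells high in F4/80 and MerTK. The gating scheme of the study set aside CD11c+ MHCII+ dendritic cells and, for F4/80lo Mϕ, Ly6G+ neutrophils and MHCII- monocytes. Each of the 4 groups (VEH or CIII, F4/80lo or F4/80hi) held 3 libraries numbered 1 to 3, so the data allow CIII to be compared with VEH in each subpopulation and F4/80lo with F4/80hi Mϕ under each treatment.

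Immediate early genes are transcribed within minutes of a stimulus, because the factors that switch them on are already present and only need to be modified, and their mRNAs are short-lived. Fos, Fosb, Jun and Junb encode subunits of the dimeric transcription factor AP-1, Atf3 a related leucine zipper protein, Egr1 a zinc finger activator and Nr4a1 an orphan nuclear receptor. Ier2 encodes a small nuclear protein, Dusp1 a phosphatase that switches off MAP kinases, and Zfp36 tristetraprolin, which binds AU-rich elements and speeds the decay of mRNAs such as that of Tnf. Prostaglandin E2 signals in Mϕ partly through cyclic AMP and the factor CREB, which binds the CRE sequence. The same genes also respond when cells are dissociated, warmed or sorted.

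As a class the genes were compact. In GENCODE models on GRCm38, the transcripts taken to stand for 8 of the 10 spanned less than 10000 bases from start to end (80%), against 25.1% of 9365 protein-coding genes tested in both tables, and the medians were 3427 and 22452 bases. Jun, Junb and Ier2 had a single exon, and 5 of the 10 had 2 exons or fewer, against 5.65% of the tested genes. An AU-rich heptamer, TATTTAT, stood in the 3′ untranslated region of 6 of the 10 mRNAs (60%) and of 29.0% of the tested genes. Dusp1 and Zfp36 had 3 copies each, Fos had 2, and Fosb, Jun and Atf3 had 1, whereas none was found in Junb, Egr1, Ier2 and Nr4a1. These shares describe the annotation and not the libraries.

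Promoter sequences from RefSeq (GRCm38.p6) were at hand for 8 of the 10 genes, and the 250 bases before the start were searched on both strands. The core of the CRE, TGACG, was found in 6 of the 8 (Fos, Fosb, Junb, Atf3, Nr4a1 and Dusp1), against 17.8% of 32851 promoters. The full CRE, TGACGTCA, which contains that core, stood only in the Dusp1 promoter, 143 bases before the start, and in 1.55% of all promoters. A CArG box, the site of serum response factor, was found in the Zfp36 window (1.47% of all promoters), and the EGR site GCGNGGGCG in those of Fosb, Zfp36 and Nr4a1 (4.70%). The TATA box TATAAA occurred in Fos (12.4%), and the AP-1 site TGANTCA in none of the 8 (6.75%). The 150 bases before the RefSeq start are printed 5′ to 3′ on the gene's strand for Fos (chr12:85473740-85473889, plus strand), Junb (chr8:84978749-84978898, minus strand) and Nr4a1 (chr15:101266696-101266845, plus strand). These 3 were chosen because they hold a match and touch no annotated exon, and because their genes had p-values among the lowest, or the widest spread, in the comparisons that follow. Capitals mark the CRE core, which reads CGTCA where it lies on the other strand, the TATA box and the EGR site.
Fos: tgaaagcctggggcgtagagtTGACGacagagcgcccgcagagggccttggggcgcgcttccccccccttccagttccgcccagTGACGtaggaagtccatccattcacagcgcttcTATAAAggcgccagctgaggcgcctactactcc
Junb: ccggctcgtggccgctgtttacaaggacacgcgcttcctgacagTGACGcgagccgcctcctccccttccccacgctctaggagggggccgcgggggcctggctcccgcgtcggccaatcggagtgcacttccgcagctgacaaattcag
Nr4a1: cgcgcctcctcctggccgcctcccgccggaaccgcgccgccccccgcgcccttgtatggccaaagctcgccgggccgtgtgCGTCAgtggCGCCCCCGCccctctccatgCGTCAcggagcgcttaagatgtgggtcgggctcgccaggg
A match says only that the letters are present. The Nr4a1 stretch precedes the start of a shorter GENCODE transcript and lies in an intron of the longest one, whose start is farther upstream.

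The libraries held 426624 to 3389448 reads on genes, so a count of 0 allowed up to 0.885 to 7.03 RPM (reads per 1000000 reads on genes). As the libraries are 3′ tag libraries with 1 read per mRNA molecule, levels of different genes were compared without a length correction. Of 6 general Mϕ markers, Lyz2 stood at 5044 to 17365 RPM and Fcgr1, the lowest, at 21.1 to 187. By contrast, neutrophil markers summed to 23.1 to 137 RPM, with Ly6g at or below 0.769, and mesothelial markers to at most 1.195. The 2 libraries labelled F4/80hi number 3 went against their gate. Adgre1, which encodes F4/80, stood at 366 and 368 RPM there, inside the 205 to 381 of the F4/80lo libraries and below the 1064 to 1336 of the other 4 F4/80hi libraries. Mertk, the other gene of the gate, did not separate the libraries, with 169 to 330 in these 2, 181 to 435 in the other F4/80hi and 193 to 450 in the F4/80lo libraries. The 7 resident Mϕ markers summed to 690.0 and 949 in these 2 libraries, to 2711 to 3202 in the other F4/80hi and to 572 to 1200 in the F4/80lo libraries. The number 3 libraries of all groups also held 2.65% to 14.3% of reads on the transcript Gm42418, which overlaps ribosomal RNA sequence, against at most 0.579% in the other 8. The F4/80lo libraries of number 3 stood apart as well, with dendritic cell markers at 4.13 to 29.0 RPM against 121 to 247 in numbers 1 and 2. Retnla, a gene of alternatively activated Mϕ, was lower in number 3 of both subpopulations. It stood at 7.38 to 17.4 against 183 to 4491 in F4/80lo and at 6.66 to 16.6 against 89.4 to 536 in F4/80hi libraries. The part of these differences in the results of number 3 was not tested. Values from numbers 1 and 2 alone, an alternative added after seeing the data, are given beside several of the results.

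Junb was the most abundant of the 10 genes, with a mean of 454 RPM over the 12 libraries, and it exceeded Zfp36 (219) in 12 of 12 libraries. Jun (172), Dusp1 (119), Fos (49.8), Egr1 (45.6), Ier2 (37.0), Nr4a1 (35.3) and Atf3 (33.0) followed, and Fosb came last with 1.10. From Fos down to Atf3 the order was not fixed, since each of these genes exceeded its lower neighbour in only 5 to 8 of 12 libraries. Zfp36 exceeded Jun in 7 of 12 libraries, and Jun exceeded Dusp1 in 10 of 12. Together the 10 genes took 810.2 to 1466 RPM. Within groups the spread was wide: the coefficient of variation of the 9 genes other than Fosb had a median of 36.0% over 36 gene and group combinations (9.14% to 73.2%) and exceeded the counting error in 34 of them.

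**Figure D1:**
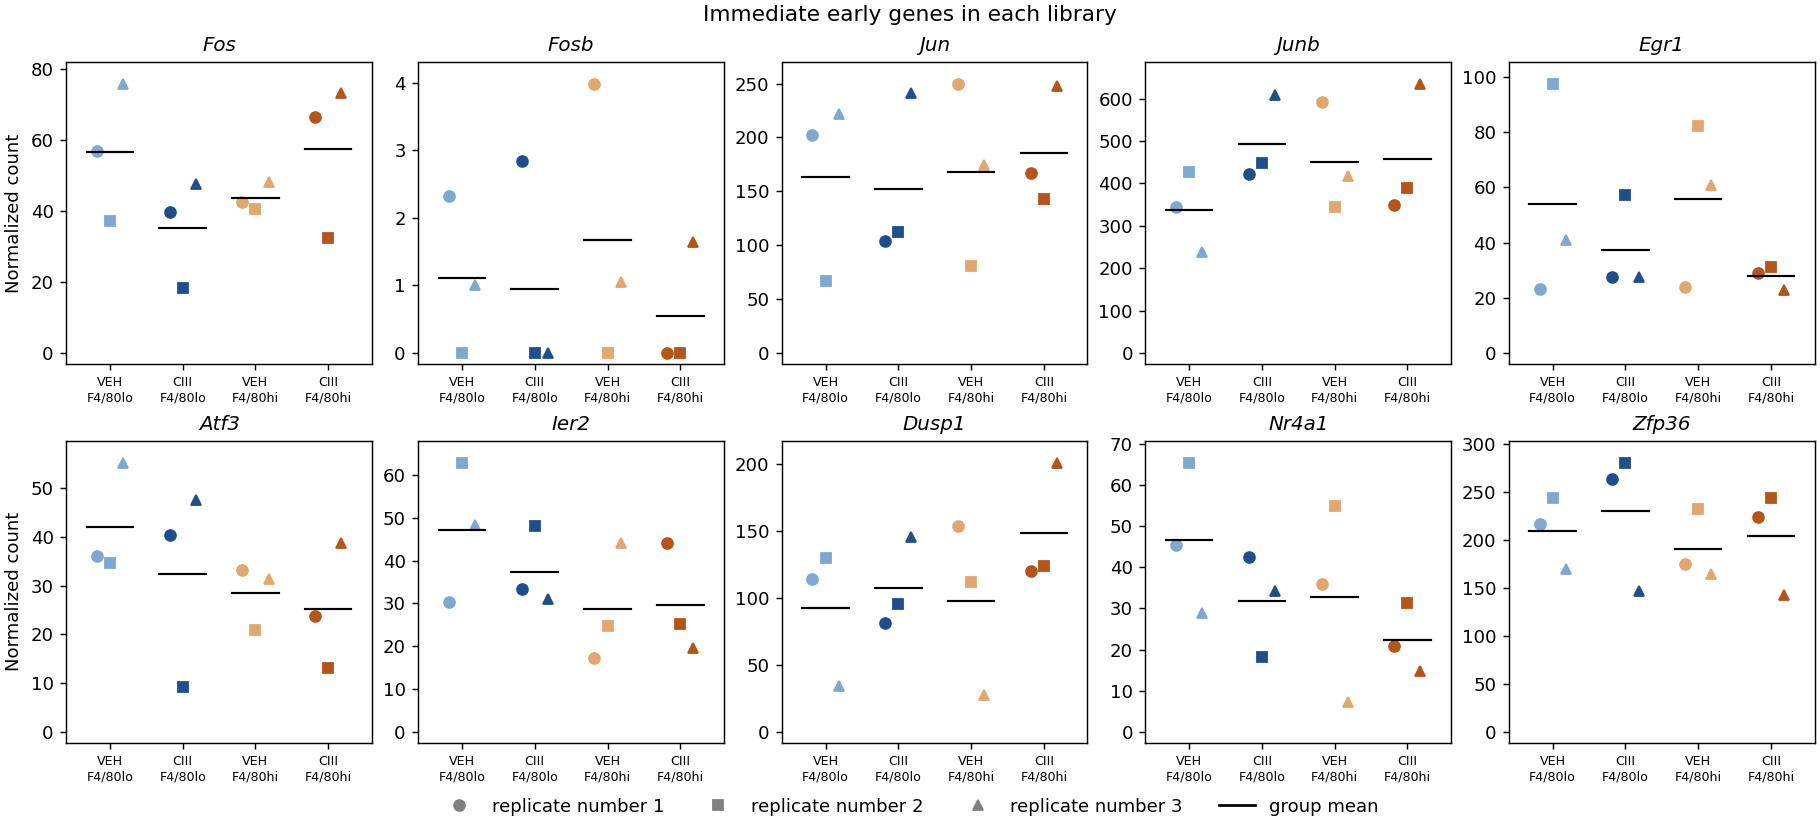
Normalized counts (y axis, as deposited, each panel from 0) of the 10 genes in the 12 libraries, by group (x axis), with the replicate number as symbol and the group mean as a line. The groups overlap in every panel, and symbols of the same number often lie at a similar height in both subpopulations, as for Zfp36, where number 3 is lowest in all 4 groups.

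None of the genes passed the test for a change with CIII. With limma on log2(normalized count + 1), 0 of the 9 genes tested passed an adjusted p of 0.05 in F4/80lo Mϕ (0% of 10718 genes did) and 0 in F4/80hi Mϕ (0% of 10499). Fosb was too low to be tested. At an unadjusted p of 0.05 the counts were again 0 and 0, against 2.7% of all genes in F4/80lo (289 genes) and 3.93% in F4/80hi Mϕ (413 genes). For none of the 9 did the VEH and CIII libraries fall into separate ranges, which they did for 8.73% of genes in F4/80lo Mϕ and 10.5% in F4/80hi Mϕ. In numbers 1 and 2 alone they did for 3 of the 9 in F4/80lo (Dusp1, Nr4a1 and Zfp36), against 34.3% of genes, and for 2 in F4/80hi Mϕ (Ier2 and Nr4a1), against 39.1%. In F4/80lo Mϕ 3 of the genes were higher and 6 lower with CIII (median log2 change -0.29, all genes -0.05), and in F4/80hi Mϕ 6 were higher and 3 lower (median 0.07, all genes 0.05). The 95% intervals of the 9 genes had a median reach of 1.07 to either side in F4/80lo Mϕ and 1.11 in F4/80hi Mϕ on the log2 scale. On recovered whole reads, DESeq2 called 2 genes in F4/80lo Mϕ and 0 in F4/80hi Mϕ and edgeR none, with no member among them. Exact permutation tests of the single genes (two-sided, 3 libraries against 3, smallest possible p = 0.1) gave p = 0.2 to 1.0 for F4/80lo libraries and p = 0.3 to 1.0 for F4/80hi libraries. The methods speak of independent experiments for the data in general, but the labels do not say which mouse or experiment a library came from, so the p-values measure the spread between these libraries. In bulk libraries of sorted cells, fewer expressing cells and less mRNA per cell cannot be told apart.

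**Figure D2:**
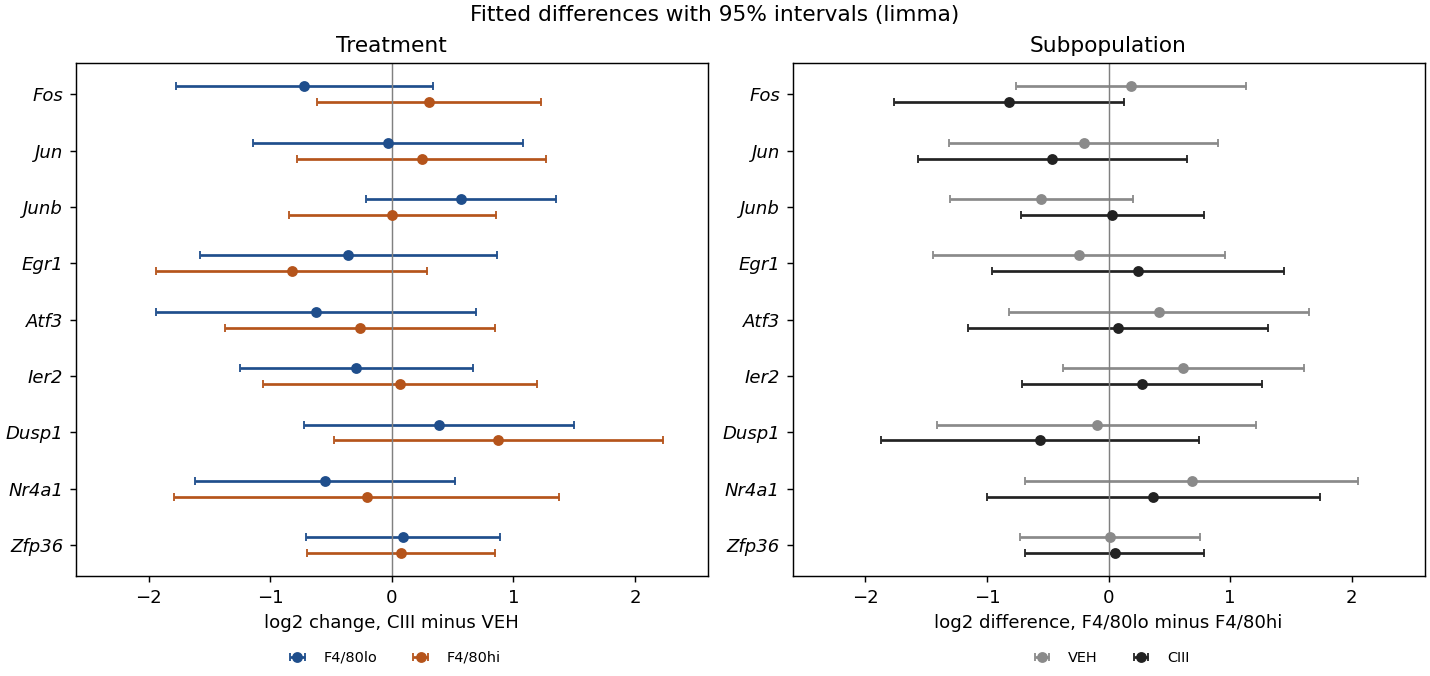
Fitted log2 differences (x axis) with 95% intervals for the 9 tested genes (y axis), on the left CIII minus VEH in F4/80lo and F4/80hi Mϕ, on the right F4/80lo minus F4/80hi Mϕ with VEH and with CIII. All 36 intervals span 0.

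Among the AP-1 subunits, Fos (chr12:85473890-85477273) had the largest fitted decrease in F4/80lo Mϕ. It stood at 57.0, 37.2 and 75.9 normalized counts in VEH libraries 1 to 3 and at 39.7, 18.3 and 47.5 in CIII libraries 1 to 3. The ranges overlapped, but each CIII library lay below the VEH library of its number, by 0.51, 0.99 and 0.66 log2 units. The fitted change was -0.72 ± 0.48 (SE, n = 3 per group, 95% interval -1.78 to 0.34, limma p = 0.162, exact permutation p = 0.3, adjusted p = 0.9996). Without CIII library 2, in which Fos rested on 8 reads, the change was -0.32, and without VEH library 2 it was -0.99. Blocking by replicate number lowered the limma p to 0.0658 (adjusted p = 0.710). Going the same way in all 3 numbers was common, as 28.8% of the tested genes did so. Fos in F4/80hi Mϕ was at 42.5, 40.5 and 48.2 with VEH and at 66.4, 32.4 and 73.3 with CIII, higher in 2 of 3 numbers (log2 change 0.30 ± 0.41). With 1 library left out, this change ranged from 0.089 to 0.67.

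The response of Fos thus pointed to opposite sides in the 2 subpopulations, and the difference was tested directly. CIII minus VEH in F4/80lo less the same in F4/80hi Mϕ came to -1.03 ± 0.63 log2 units for Fos (95% interval -2.38 to 0.33, limma, adjusted p = 0.9993). In this contrast 0 of the 9 genes passed the adjusted threshold (0% of 10097 genes) and 0 the unadjusted one (1.71% of genes, 173). With the replicate block the unadjusted p for Fos came to 0.0380 (adjusted p = 0.886), and with treatment and number together as a block, an alternative added after seeing the data, to 0.0326 (adjusted p = 0.693); these fits put 557 and 713 of 10097 genes under 0.05. From numbers 1 and 2 alone the value was -0.91, and leaving out 1 library moved it to between -1.39 and -0.62.

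Junb (chr8:84974484-84978718) went the other way in F4/80lo Mϕ. Its normalized counts were 343, 427 and 239 with VEH and 421, 448 and 608 with CIII, higher in each of the 3 numbers, though CIII library 1 lay below VEH library 2. The log2 change was 0.57 ± 0.36 (95% interval -0.21 to 1.35, limma p = 0.137, exact permutation p = 0.2, adjusted p = 0.9996). The replicate block left an adjusted p of 0.718. Number 3 carried most of it, since the increases were 0.30, 0.07 and 1.34 log2 units in numbers 1 to 3, and numbers 1 and 2 alone gave 0.18. Leaving out VEH library 3 alone gave 0.34. In F4/80hi Mϕ, Junb stood at 592, 345 and 417 with VEH and at 349, 388 and 635 with CIII, with a fitted change of 0.00 ± 0.38 and of -0.30 from numbers 1 and 2 alone.

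Jun (chr4:95049034-95052222) varied more between libraries than between treatments. In F4/80lo Mϕ it was at 202, 66.7 and 222 with VEH and at 104, 112 and 241 with CIII. VEH library 2 was the lowest in both subpopulations, since F4/80hi Mϕ gave 249.97, 81.0 and 174 with VEH and 167, 143 and 248 with CIII. The changes were -0.03 ± 0.51 and 0.25 ± 0.45 log2 units. Fosb (chr7:19302696-19310051) was barely detected, with 16 reads over all libraries, at most 4 in 1 library and none in 6 of 12. Its highest normalized count was 3.99, in VEH F4/80hi library 1, and no difference between groups was detectable at this depth.

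Atf3 (chr1:191170296-191218039) resembled Fos in its pattern over libraries. In F4/80lo Mϕ it stood at 36.1, 34.7 and 55.3 with VEH and at 40.4, 9.14 and 47.5 with CIII. The lowest value, in CIII library 2, rested on 4 reads and was also the library with the lowest Fos. The log2 change was -0.62 ± 0.60 there and -0.26 ± 0.49 in F4/80hi Mϕ, where VEH gave 33.2, 20.9 and 31.4 and CIII 23.8, 13.2 and 38.8. Numbers 1 and 2 alone gave -0.54 for Atf3 in F4/80hi Mϕ. Over the 12 libraries, taken as deviations from their group means, Atf3 and Fos had the highest correlation of all 36 pairs of the 9 genes (r = 0.90, a description of libraries that share their numbers).

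Egr1 had the largest fitted decrease in F4/80hi Mϕ. Its values there were 23.9, 82.3 and 60.8 with VEH and 28.9, 31.2 and 23.0 with CIII. The CIII libraries were close together and VEH library 1 lay among them, so the groups overlapped. The change was -0.82 ± 0.50 log2 units (95% interval -1.94 to 0.29, limma p = 0.130, exact permutation p = 0.3, adjusted p = 0.992; adjusted p = 0.477 with the replicate block). Without VEH library 2 the change was -0.46, and without VEH library 1 it was -1.33. In F4/80lo Mϕ, VEH libraries were at 23.3, 97.6 and 41.0 and CIII libraries at 27.7, 57.1 and 27.6, a change of -0.36 ± 0.56. Number 2 was the highest library of VEH in both subpopulations.

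Nr4a1 (chr15:101254269-101274795) stood at 45.4, 65.5 and 29.0 in VEH and at 42.6, 18.3 and 34.3 in CIII libraries of F4/80lo Mϕ (-0.55 ± 0.49 log2 units, limma p = 0.284, exact permutation p = 0.4). With 1 library left out, the change of Nr4a1 there ranged from -0.84 to -0.21. F4/80hi Mϕ gave 35.9, 54.9 and 7.34 with VEH, the last from 7 reads, and 20.9, 31.2 and 14.8 with CIII (-0.21 ± 0.70). Library 3 was the lowest in 3 of the 4 groups. From numbers 1 and 2 alone Nr4a1 was lower with CIII in both subpopulations (-0.94 in F4/80lo Mϕ and -0.77 in F4/80hi Mϕ, neither past the threshold). Ier2 (chr8:84661331-84662852) was at 30.3, 62.9 and 48.3 with VEH and 33.3, 48.0 and 31.0 with CIII in F4/80lo Mϕ. In F4/80hi Mϕ it was at 17.3, 24.8 and 44.0 with VEH and at 44.0, 25.2 and 19.7 with CIII, a mirrored order with a change of 0.07 ± 0.50. For Ier2 this rested on number 3, as numbers 1 and 2 alone gave 0.66.

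The 2 feedback genes differed in how far they varied. Dusp1 (chr17:26505590-26562128) was at 114, 129.6 and 34.0 in VEH and 81.6, 95.9 and 146 in CIII libraries of F4/80lo Mϕ, and at 154, 112 and 27.3 in VEH and 121, 124 and 201 in CIII libraries of F4/80hi Mϕ. Number 3 was thus the lowest library with VEH and the highest with CIII, in both subpopulations. The changes of 0.39 ± 0.51 and 0.88 ± 0.60 log2 units (limma p = 0.460 and p = 0.178, exact permutation p = 0.8 and p = 0.4) depended on it: number 3 alone rose by 2.07 and 2.84, whereas numbers 1 and 2 gave -0.45 and -0.11. Zfp36 (chr7:28376784-28380253) was the steadiest, at 216, 244 and 169.9 with VEH and 264, 281 and 147 with CIII in F4/80lo Mϕ. F4/80hi Mϕ had 176, 233 and 165 with VEH and 225, 244 and 143 with CIII. Its changes were 0.09 ± 0.36 and 0.07 ± 0.34, with intervals of -0.71 to 0.89 and -0.70 to 0.85.

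Levels in the 2 subpopulations were compared on recovered whole reads scaled jointly over the 12 libraries, because the deposited tables were scaled separately. With VEH, 0 of the 9 genes differed at an adjusted p of 0.05 (0% of 10660 genes), 0 at an unadjusted p of 0.05 (5.84%, 623 genes), and 0 had separate ranges (10.3% of genes). With CIII the counts were 0, 0 and 0 as well, against 0%, 5.38% (573 genes) and 11.5% of all genes. DESeq2 called 19 and 22 genes and edgeR 0 and 0, none of them a member. Without number 3, whose F4/80hi libraries went against the gate, limma called 51 and 35 genes and again no member. In numbers 1 and 2 alone the ranges of 1 of the 9 genes were separate with VEH, Ier2 (F4/80lo libraries at 28.9 and 60.8 jointly scaled counts, F4/80hi libraries at 18.1 and 26.0), against 41.8% of all genes. With CIII those of 3 were, Jun, Junb and Dusp1, against 41.2%, as for Dusp1, whose F4/80lo libraries were at 78.2 and 93.4 and whose F4/80hi libraries were at 125 and 129.

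Fos had the lowest limma p of these comparisons, under CIII. Its jointly scaled level was 33.7 ± 14.3 in F4/80lo Mϕ and 59.4 ± 22.4 in F4/80hi Mϕ (SD, n = 3 each), and it was lower in F4/80lo Mϕ in each of the 3 numbers, by 0.84, 0.89 and 0.72 log2 units. The fitted difference was -0.82 ± 0.44 (95% interval -1.76 to 0.13, limma p = 0.0854, exact permutation p = 0.3, adjusted p = 0.932). Under the replicate block the unadjusted p was 0.0214 (adjusted p = 0.338), and numbers 1 and 2 alone gave -0.87. Leaving out 1 library moved the value for Fos to between -1.17 (without CIII F4/80hi library 2) and -0.42 (without CIII F4/80lo library 2). Jun and Dusp1 were also lower in F4/80lo Mϕ in all 3 numbers with CIII (-0.46 ± 0.52 and -0.57 ± 0.61), and 34.4% of all genes went 1 way in all 3. Leaving out CIII F4/80lo library 3 gave -0.84 for Jun and -0.80 for Dusp1, while Jun stood at -0.24 without CIII F4/80lo library 1 and Dusp1 stood at -0.34 without CIII F4/80hi library 3. With treatment and number as a block, the unadjusted p was 0.0178 for Fos (adjusted p = 0.249) and 0.0378 for Dusp1 (adjusted p = 0.324), in a fit that put 1461 of 10660 genes under 0.05. With VEH, Fos was at 54.0 ± 17.8 and 45.6 ± 3.79, a difference of 0.19 ± 0.44.

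With VEH the widest fitted differences were those of Nr4a1, Ier2 and Junb. Nr4a1 averaged 44.6 ± 18.03 in F4/80lo Mϕ and 34.2 ± 25.1 in F4/80hi Mϕ (0.69 ± 0.64 log2 units, limma p = 0.301, exact permutation p = 0.6), of which number 3 gave 1.72, and numbers 1 and 2 alone gave 0.17. Ier2 averaged 45.1 ± 15.9 and 29.9 ± 14.1 (0.61 ± 0.46, limma p = 0.205, exact permutation p = 0.2), with 0.92 from numbers 1 and 2. Leaving out 1 library moved the value for Ier2 to between 0.32 and 0.96. Junb averaged 322 ± 94.3 and 471 ± 135 (-0.55 ± 0.35, limma p = 0.138, exact permutation p = 0.2). Numbers 1 and 2 alone gave -0.36 for Junb, and leaving out VEH F4/80lo library 3 gave -0.32. With treatment and number as a block the unadjusted p for Junb was 0.0366 (adjusted p = 0.274), and 1667 of 10660 genes were under 0.05. Zfp36 was the most alike, at 201 ± 38.3 and 199 ± 38.9, with a 95% interval of the difference from -0.73 to 0.75.

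F4/80lo and F4/80hi libraries of the same treatment and number deviated from their group means in the same way: across the 9 genes the correlation was 0.929, 0.778 and 0.765 for VEH numbers 1 to 3 and 0.248, 0.571 and 0.854 for CIII numbers 1 to 3. Their median was 0.772, against -0.34 for the 12 pairs with different numbers. Over the 10097 genes tested in both tables the same pairs gave 0.268 to 0.713 (median 0.410) and those with different numbers a median of -0.25. For CIII and VEH libraries of 1 subpopulation, the median across the 9 genes was 0.172 (-0.681 to 0.722) with the same number and -0.14 with another, and over all genes 0.337 and -0.29. Libraries that differed in both treatment and subpopulation had medians of 0.112 (-0.539 to 0.610) with the same number and -0.09 with another, and over all genes 0.300 and -0.24. Deviations within a group of 3 sum to 0, so the values of pairs with different numbers mirror those of pairs with the same number and are no separate baseline. These correlations are across genes, which are not independent replicates. The sources used here do not say whether F4/80lo and F4/80hi libraries with a shared number came from the same mice or were handled together, and this pattern was chosen after its values were seen.

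**Figure D3:**
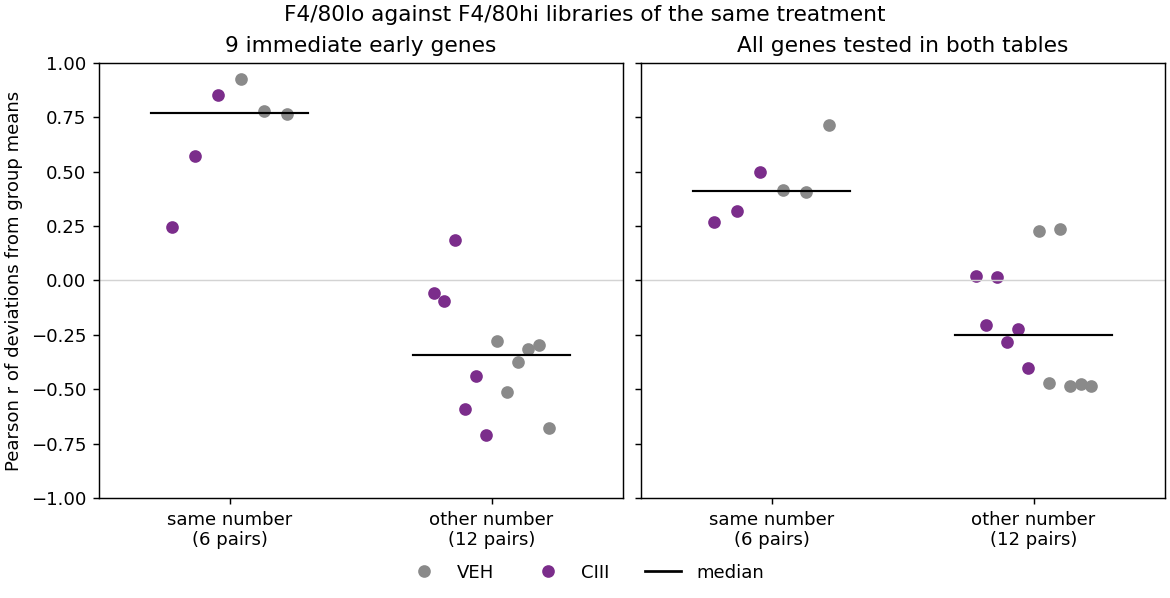
Pearson correlation (y axis) of deviations from group means between F4/80lo and F4/80hi libraries of the same treatment, for pairs with the same or another number (x axis), across the 9 tested genes on the left and all 10097 genes on the right, with medians as lines. For the 9 genes all 6 same-number pairs lie above 0, between 0.248 and 0.929, and the medians are 0.772 and -0.34.

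Gene by gene, the level in F4/80lo Mϕ was set against that in F4/80hi Mϕ over the 6 pairs of treatment and number. Zfp36 had the closest relation (Pearson r = 0.960, exact permutation p = 0.00278, Spearman rho = 0.943, exact permutation p = 0.0167), and r was still 0.896 without the 2 pairs farthest from the median, which were those of number 3. Jun had r = 0.888 (exact permutation p = 0.0167, rho = 0.771, exact permutation p = 0.103), 0.648 without its 2 farthest pairs and 0.959 in numbers 1 and 2. Atf3 gave r = 0.868 (exact permutation p = 0.0319, rho = 0.714, exact permutation p = 0.136; 0.653 without 2 pairs) and Egr1 r = 0.811 (exact permutation p = 0.0514, rho = 0.886, exact permutation p = 0.0333; 0.945 without 2 pairs). Dusp1 had r = 0.946 (exact permutation p = 0.0236, rho = 0.657, exact permutation p = 0.175), but this rested on number 3, since r was 0.0669 without it. The remaining 4 had r between 0.226 and 0.457 (exact permutation p = 0.374 to 0.653). Without their 2 farthest pairs, r turned to -0.91 for Junb and to -0.064 for Fos, stood at 0.283 for Ier2 and rose to 0.969 for Nr4a1. All these tests were two-sided, and after adjustment over the 10097 genes none passed (smallest adjusted p = 0.156, that of Zfp36). The permutations take the 6 pairs as exchangeable, although VEH and CIII pairs share their numbers, so these p-values may be too small. An unadjusted p under 0.05 was reached by 4 of the 9 genes and by 16.8% of all genes, and the median r was 0.811 against 0.461. The share of Gm42418 and, in F4/80hi libraries, Adgre1 also moved with the number, and their part in this was not tested.

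**Figure D4:**
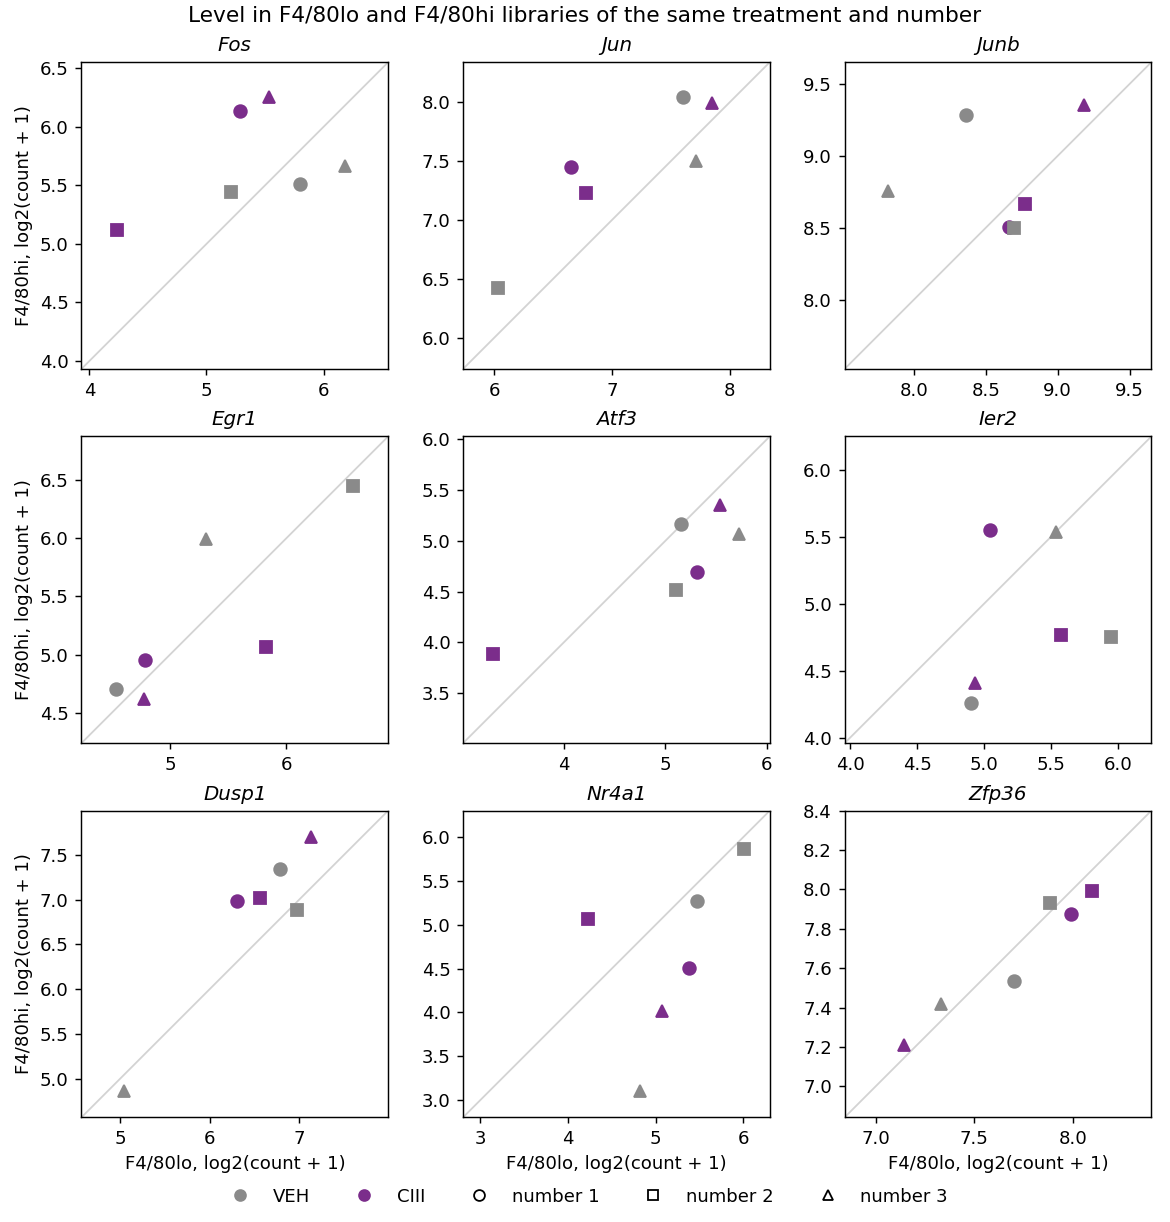
Level in F4/80lo (x axis) against F4/80hi libraries (y axis) of the same treatment and number, as log2(jointly scaled count + 1), for the 9 tested genes, with the line of equality. Zfp36, Jun, Atf3 and Egr1 run along the line, whereas Dusp1 has 1 pair, VEH number 3, far below the others.

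The 9 genes did not move as a block. Of their 36 pairs, 14 correlated above 0 and 22 below 0 over the deviations of the 12 libraries, with a median r of -0.13. Fos with Atf3 (0.90), Egr1 with Ier2 (0.71) and Dusp1 with Nr4a1 (0.69) were the most alike, and Jun with Egr1 (-0.80), Jun with Zfp36 (-0.80) and Atf3 with Zfp36 (-0.75) the most opposed. The genes outside the list most like the mean of the 9 were Sec16a (r = 0.928 over 12 libraries), Cd86 (0.916), which encodes a costimulatory ligand for T cells, and Vav2 (0.900), which encodes a guanine nucleotide exchange factor. Cadm1, Kbtbd11, Tdrd3, Impad1, Cdc23, Slc25a10 and Pank3 followed with 0.890 to 0.900. All these genes were picked as the highest r among the 10097 genes tested in both tables, and the picking alone raises their r. Each of the 9 is itself part of that mean, which raises its own r. Even so, Egr1 (-0.06), Jun (-0.06), Ier2 (-0.20) and Zfp36 (-0.26) correlated with it below 0, so the mean does not stand for every member.

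Other genes of the same response were read from lists chosen by function. Of 19 other immediate early transcription factors, 16 were tested in F4/80lo Mϕ (8 higher, 8 lower) and 15 in F4/80hi Mϕ (12 higher, 3 lower). None passed an unadjusted p of 0.05 in either, against 2.7% and 3.93% of all genes. Irf1, the interferon-responsive factor, was at 256, 118 and 759.8 with VEH and at 1136, 395 and 832 with CIII in F4/80lo Mϕ (1.34 ± 0.62 log2 units, limma, adjusted p = 0.9996). F4/80hi Mϕ gave 145, 111 and 826 with VEH and 705, 181 and 823 with CIII (0.99 ± 0.81). Leaving out VEH library 2 gave 0.71 and leaving out VEH library 3 gave 2.04 for Irf1 in F4/80lo Mϕ, and the same omissions gave 0.45 and 1.89 in F4/80hi Mϕ. It varied with the number as well, VEH library 3 being the highest VEH library in both. Fosl2, another AP-1 subunit, differed by 0.64 ± 0.44 in F4/80lo and Mafk, a small Maf protein, by 0.94 ± 0.65 in F4/80hi Mϕ, where it rested on 2 to 28 reads per library. Leaving out 1 library moved Fosl2 to between 0.32 (without VEH library 3) and 1.12 (without VEH library 2), and Mafk to between 0.54 (without VEH library 1) and 1.36 (without VEH library 2).

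Of 22 other feedback regulators, 21 were tested in F4/80lo Mϕ (11 higher, 10 lower) and 20 in F4/80hi Mϕ (12 higher, 8 lower), with none called. At an unadjusted p of 0.05, 1 of them passed in F4/80lo (Tnfaip3), against 2.7% of all genes, and 0 in F4/80hi Mϕ, against 3.93%. Ranges were separate for 2 of the 21 in F4/80lo Mϕ (Tnfaip3 and Gadd45b), against 8.73% of all genes. In F4/80hi Mϕ they were for 0 of the 20, against 10.5%. Tnfaip3, the NF-κB inhibitor A20, stood at 20.9, 7.70 and 17.0 with VEH and at 7.09, 0 and 4.42 with CIII in F4/80lo Mϕ. Its ranges were separate, and the change was -2.10 ± 0.92 log2 units (limma, adjusted p = 0.9996). The CIII values of Tnfaip3 rested on 10, 0 and 4 reads, and leaving out 1 library moved its change to between -2.70 (without CIII library 1) and -1.19 (without CIII library 2). Ier5 differed by 1.05 ± 0.57 in F4/80lo (0.42 without VEH library 3, 1.52 without CIII library 3), Trib1 by 0.63 ± 0.38 and Nfkbiz by 0.70 ± 0.53 in F4/80hi Mϕ. With 1 library left out, Trib1 ranged from 0.35 (without VEH library 1) to 0.90 (without VEH library 3), and Nfkbiz from 0.25 (without CIII library 3) to 1.077 (without CIII library 1).

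Of 22 upstream kinases and promoter-bound activators, 21 were tested in F4/80lo Mϕ (15 higher, 6 lower) and 22 in F4/80hi Mϕ (13 higher, 9 lower), with none called. The unadjusted threshold was passed by 1 of them in F4/80lo (Map2k2), against 2.7% of all genes, and by 0 in F4/80hi Mϕ, against 3.93%. Ranges were separate for 3 of the 21 in F4/80lo Mϕ (Map2k2, Rps6ka5 and Mrtfb), against 8.73% of all genes. In F4/80hi Mϕ they were for 0 of the 22, against 10.5%. Map2k2, the MAP kinase kinase MEK2, was at 79.1, 59.0 and 99.9 with VEH and at 53.2, 25.1 and 45.3 with CIII in F4/80lo Mϕ, without overlap (-0.96 ± 0.42 log2 units, limma, adjusted p = 0.9996). Rps6ka5, the kinase MSK1, gave 2.33, 2.57 and 7.33 with VEH and 12.1, 11.4 and 11.1 with CIII there (1.44 ± 0.73, limma, adjusted p = 0.9996), also without overlap. These values of Rps6ka5 rested on 2, 2 and 22 reads with VEH and on 17, 5 and 10 with CIII. In F4/80hi Mϕ the values were -0.60 ± 0.51 for Map2k2 and 0.47 ± 0.42 for Rps6ka3, the kinase RSK2. Map2k2 there ranged from -0.94 (without CIII library 3) to -0.069 (without CIII library 2), and Rps6ka3 from 0.14 (without CIII library 1) to 0.70 (without VEH library 1).

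Among 11 mRNAs known as targets of tristetraprolin, 5 were tested in F4/80lo Mϕ (1 higher, 4 lower, median log2 change -1.05, all genes -0.05). In F4/80hi Mϕ 6 were tested (3 higher, 3 lower, median 0.13, all genes 0.05), with none called in either. Unadjusted, 2 passed in F4/80lo (Ccl2 and Ccl3), against 2.7% of all genes, and 0 in F4/80hi Mϕ, against 3.93%. Ranges were separate for 1 of the 5 in F4/80lo (Ccl2), against 8.73%, and for 0 of the 6 in F4/80hi Mϕ, against 10.5%. Ccl2, a chemokine for monocytes, was at 53.5, 87.3 and 108 with VEH and at 23.4, 16.0 and 14.4 with CIII in F4/80lo Mϕ. The ranges were separate, and the change was -2.12 ± 0.44 log2 units (limma, adjusted p = 0.9996). F4/80hi Mϕ gave 11.97, 56.2 and 127 with VEH and 41.9, 21.6 and 7.66 with CIII (-1.17 ± 0.86), and numbers 1 and 2 alone gave 0.19. Ccl3, another chemokine, was at 23.3, 11.6 and 1.998 with VEH and at 2.84, 0 and 0 with CIII in F4/80lo Mϕ (-2.63 ± 1.11, limma, adjusted p = 0.9996). These values of Ccl3 rested on 20, 9 and 6 reads with VEH and on 4, 0 and 0 with CIII, and the ranges overlapped. With 1 library left out, its change ranged from -3.48 to -1.97. The change of Ccl3 in F4/80hi Mϕ was -0.57 ± 0.69. Zfp36 itself differed by 0.09 and 0.07 in the same comparisons.

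Heat shock genes, which like immediate early genes respond to the handling of cells, were all tested. In F4/80lo Mϕ 0 of 10 were higher and 10 lower with CIII (median -0.36), where 45.9% of all genes were higher and the median of all was -0.05. In F4/80hi Mϕ 4 were higher and 6 lower (median -0.14, all genes 0.05), with none called in either. The unadjusted threshold was passed by 0 in F4/80lo Mϕ, against 2.7% of all genes, and by 1, Hspe1, in F4/80hi Mϕ, against 3.93%. Ranges were separate for 0 of the 10 in F4/80lo Mϕ, against 8.73%, and for 1, Hspa8, in F4/80hi Mϕ, against 10.5%. Hspe1, a mitochondrial chaperonin, was at 106, 98.8 and 41.0 with VEH and 41.9, 43.4 and 31.0 with CIII in F4/80lo Mϕ (-0.96 ± 0.45 log2 units), and at 129, 58.8 and 88.0 with VEH and 67.9, 27.6 and 26.3 with CIII in F4/80hi Mϕ (-1.23 ± 0.48, limma, adjusted p = 0.992). Hspa1b, an inducible Hsp70, was at 43.1, 29.5 and 21.7 with VEH and at 7.09, 6.85 and 64.1 with CIII in F4/80lo Mϕ, where library 3 was the highest (-0.96 ± 0.77, -2.20 from numbers 1 and 2 alone and -0.44 without CIII library 2). Hspa8, the constitutive Hsp70, was at 222, 316 and 140.4 with VEH and 137, 131 and 137 with CIII in F4/80hi Mϕ without overlap (-0.66 ± 0.37, limma, adjusted p = 0.992). Hspa8 there ranged from -0.97 (without VEH library 3) to -0.38 (without VEH library 2).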

How the data were processed

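mRNA from 12 libraries of sorted Mϕ was analysed. The authors made 3′ tag libraries with unique molecular identifiers, mapped reads to GRCm38 with STAR and collapsed duplicates. They counted reads per gene with HTSeq and used DESeq2 for differential expression. Versions are not given in the sources used here. The deposited values, in a separate table for each subpopulation, were taken as reads divided by DESeq2 size factors set for each table. The deposited normalized counts are thus a per-library scaled signal. All values (100%) were whole multiples of 1 read within 0.02 reads, and whole reads were recovered. Depth was 426624 to 3389448 reads, and limits from it cover counting error only. Symbols and coordinates came from GENCODE (47224 of 47643 genes), promoters from RefSeq.

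Genes with a mean of at least 3 were tested with limma 3.58.1 (R 4.3.3) on log2(normalized count + 1), two-sided, Benjamini-Hochberg adjusted over all genes tested, threshold 0.05, groups taken from the labels; fold changes on this scale understate changes of low genes. Levels between subpopulations used whole reads with joint median-of-ratios factors. The fit was tested on simulated counts with changes far larger than those fitted for the members and without an effect of the number. It thus does not show whether changes of the members' size would be found. Exact permutation tests over all orders of the 6 pairs were computed with NumPy 2.4.6, with ranks from SciPy 1.17.1. edgeR 4.0.16, DESeq2 1.42.0 and the other alternatives are given in the closing section. The members, lists and tests were chosen with earlier results of these data known. The text names all 10 members, the 2 genes of each list with the smallest p in each treatment comparison, and the 10 genes most like the mean of the members. Of the 9 marker lists, B cell markers summed to at most 185 RPM, T and NK cell markers to 71.4, dendritic cell markers to 247, eosinophil and mast cell markers to 16.9, and monocyte-derived Mϕ markers to 252 to 5066.

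The main fits did not pair libraries. The replicate block, an alternative, took the replicate numbers to pair CIII and VEH libraries of a table. The deviations of each of the 6 pairs from their group means were positively correlated. In order of number, r was 0.124, 0.261 and 0.515 for F4/80lo and 0.215, 0.413 and 0.642 for F4/80hi libraries. In both tables VEH library 1 correlated more with CIII library 2 (r = 0.170 for F4/80lo, 0.296 for F4/80hi libraries). Deviations within a group cancel out, so positive values alone are weak grounds for a pairing. The labels do not say what a number stands for.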

Additional observations from a re-analysis of the deposited data

How the results depend on the processing

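None of the members was called in any comparison under any of the 81 refits of the 5 comparisons, so the counts of 0 held throughout. Over all genes the calls did move. In F4/80lo Mϕ DESeq2 and library quality weights called 2 genes each against 0. Between subpopulations the replicate block called 11 genes with VEH and 11 with CIII, quality weights 9 and 73, DESeq2 19 and 22, treatment and number as a block 127 and 100, and numbers 1 and 2 alone 51 and 35. The replicate block raised the genes at an unadjusted p under 0.05 from 289 to 738 in F4/80lo, from 413 to 1187 in F4/80hi Mϕ and from 173 to 557 for the difference between them; it changed no member's call.

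Directions of the members were less fixed: 387 of 405 values under other settings and 265 of 324 with 1 library left out kept their sign, and no value crossed the threshold. Scaling to RPM gave 0.039 for Jun in F4/80lo Mϕ, -0.016 for Zfp36 in the difference and 0.0070 for Dusp1 between subpopulations with VEH. Quality weights gave -0.16 for Dusp1 in F4/80lo, -0.26 for Junb in F4/80hi Mϕ, 0.33, 0.24 and -0.013 for Atf3, Nr4a1 and Zfp36 in the difference, and -0.065 and -0.078 for Egr1 and Ier2 between subpopulations with CIII. Nr4a1 in the difference was 0.038 with edgeR and 0.062 with DESeq2, and Junb between subpopulations with CIII was -0.0030 with TMM factors, -0.022 with edgeR and -0.00049 with DESeq2. Numbers 1 and 2 alone gave -0.45 for Dusp1 in F4/80lo, and -0.30 for Junb, -0.11 for Dusp1 and 0.19 for Ccl2 in F4/80hi Mϕ. The correlation between subpopulations turned to -0.064 for Fos and -0.91 for Junb without the 2 farthest pairs, and to -0.91 for Junb and -0.032 for Ier2 in numbers 1 and 2. The cause was not tested.

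With 1 library left out, which leaves 2 in a group, the change in F4/80lo Mϕ ranged from -0.58 to 0.27 for Jun, -0.83 to 0.18 for Egr1, -1.04 to 0.092 for Atf3, -0.22 to 0.73 for Dusp1 and -0.076 to 0.39 for Zfp36. In F4/80hi Mϕ it ranged from -0.20 to 0.60 for Jun, -0.26 to 0.22 for Junb, -0.63 to 0.12 for Atf3, -0.25 to 0.42 for Ier2, -1.02 to 0.35 for Nr4a1, -0.072 to 0.31 for Zfp36 and -1.22 to 0.088 for Ccl3. The difference ranged from -0.83 to 0.17 for Jun, -0.0018 to 1.01 for Egr1, -0.77 to 0.36 for Atf3, -1.09 to 0.26 for Dusp1, -0.90 to 0.48 for Nr4a1 and -0.22 to 0.31 for Zfp36. Between subpopulations with VEH the range was -0.038 to 0.45 for Fos, -0.65 to 0.34 for Jun, -0.79 to 0.22 for Egr1, -0.85 to 0.51 for Dusp1, -0.14 to 1.25 for Nr4a1 and -0.11 to 0.17 for Zfp36, and with CIII -0.14 to 0.29 for Junb, -0.10 to 0.42 for Egr1, -0.33 to 0.78 for Atf3 and -0.19 to 0.35 for Zfp36.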
